A study of Mus musculus with 24 samples.

Results

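Small leucine-rich proteoglycans are secreted proteins that coat collagen fibrils, and lubricin is a mucin-like proteoglycan of joint and tendon surfaces. The genes described here are Dcn, Bgn, Aspn, Lum, Fmod, Prelp, Ogn, Podn and Prg4, the last of which encodes lubricin. They were taken by symbol from a table of 52997 gene symbols, where all 9 were found, and all 9 were among the 16263 genes with enough counts to be tested.

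The core of a small leucine-rich proteoglycan is a curved protein of leucine-rich repeats, which binds the surface of collagen fibrils and limits their lateral growth. The proteins of the decorin class (Dcn, decorin; Bgn, biglycan; Aspn, asporin) and the fibromodulin class (Fmod, fibromodulin; Lum, lumican; Prelp, prolargin) also bind growth factors of the TGF-beta family or cell surface receptors, and free decorin and biglycan can act as signals. Decorin and biglycan carry chondroitin or dermatan sulfate chains, whereas lumican and fibromodulin carry keratan sulfate. Ogn encodes osteoglycin (mimecan) and Podn encodes podocan. In skeletal muscle these proteins lie in the connective tissue around fibers, made largely by fibroblast-like cells, and tendon is rich in decorin, fibromodulin and lubricin.

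C57BL/6 mice, 8 weeks old, gave hindlimb muscle either 1 day after cardiotoxin, a snake toxin that destroys muscle fibers, or without injury, and RNA was sequenced from 4 populations of sorted cells. Mesenchymal stromal cells (MSC) lacked CD45 and CD31 and carried Sca1 and PDGFRa. Muscle stem cells, or satellite cells (MuSC), lacked CD45, CD31 and Sca1 and carried Vcam1, while the other two populations were CD31+ endothelial cells and CD45+ hematopoietic cells. Each of the 8 groups had 3 libraries of about 1000 double-sorted cells, which the labels call biological replicates; whether equal numbers mark the same mouse is not stated, and p-values measure the spread among these libraries.

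Library totals ran from 2301202 to 7649841 counts, so that 3 counts, the limit that a count of 0 allows, equalled 0.389 to 1.02 CPM (read counts scaled to a common library total) in a library. Gate transcripts followed the sort: Pdgfra averaged 653 ± 71 CPM in injured MSC and 568 ± 40.2 CPM in uninjured MSC, and Vcam1 averaged 405 ± 42.3 CPM in injured MuSC and 602 ± 61.6 CPM in uninjured MuSC (SD, n = 3 each). In these bulk samples, fewer cells of a type and less RNA per cell cannot be told apart. Injured MuSC replicates 2 and 3, uninjured MuSC replicate 3 and injured CD45+ replicate 3 stood apart in stromal or tendon transcripts. The main results of MuSC, CD45+ cells and the joint tests that rest on these 4 uneven libraries are given with and without them. Injured CD31+ replicate 1 stood apart in leukocyte transcripts: the 10 leukocyte markers summed to 396.9 CPM there, against 28.5 and 15.2 CPM in injured replicates 2 and 3 and 8.72 to 11.02 CPM in uninjured CD31+ libraries.

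On the mouse assembly GRCm38 (the assembly of mm10, with GENCODE vM21 positions), 6 of the 9 genes sit in families of neighbors. Dcn (chromosome 10, 97479609 to 97518143) is followed after 47.0 kb by Lum and after a further 34.2 kb by Kera, with no other protein-coding gene between them. Aspn (chromosome 13, 49544443 to 49567565) and Ogn (49608046 to 49624501) belong to a run of Ecm2, Aspn, Omd and Ogn. Prelp (chromosome 1, 133910304 to 133921414) lies 115.8 kb from Fmod. Bgn is on chromosome X, Podn on chromosome 4 and Prg4 on chromosome 1, apart from the others. Reads carry no strand, and the exons of 3 of the genes share bases with a gene on the other strand: 350 bases of Prelp with the antisense gene Gm15851, 204 bases of Prg4 with Tpr and 7 bases of Aspn with Cenpp.

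Upstream sequences are shown for Aspn and Ogn, neighbors whose transcripts were both lower in injured MSC, and for Prelp and Bgn, whose lowest level in any MuSC or MSC library was 232 CPM. They come from RefSeq (GRCm38.p6), where 6 of the 9 genes had a promoter entry, and run from 250 to 21 bases before the start, in the direction of the gene. Capitals mark each E-box, the letters CANNTG, which read alike on both strands. E-boxes are bound by basic helix-loop-helix factors, and 63.5% of all 32851 RefSeq promoter windows of 230 bases hold at least 1.
Aspn, chr13:49544193-49544422, plus strand: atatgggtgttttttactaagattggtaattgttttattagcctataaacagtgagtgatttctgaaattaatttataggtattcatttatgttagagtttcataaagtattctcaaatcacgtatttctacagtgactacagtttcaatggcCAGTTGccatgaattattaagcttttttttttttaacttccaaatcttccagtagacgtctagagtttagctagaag
Ogn, chr13:49607765-49607994, plus strand: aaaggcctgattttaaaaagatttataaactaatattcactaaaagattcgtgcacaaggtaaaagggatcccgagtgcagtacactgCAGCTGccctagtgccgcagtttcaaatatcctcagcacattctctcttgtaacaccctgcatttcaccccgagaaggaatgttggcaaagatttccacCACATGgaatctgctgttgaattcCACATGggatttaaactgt
Prelp, chr1:133921422-133921651, minus strand: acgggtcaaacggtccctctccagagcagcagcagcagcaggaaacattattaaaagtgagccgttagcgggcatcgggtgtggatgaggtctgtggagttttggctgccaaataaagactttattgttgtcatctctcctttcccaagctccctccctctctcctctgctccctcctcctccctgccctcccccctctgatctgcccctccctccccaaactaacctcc
Bgn, chrX:73483351-73483580, plus strand: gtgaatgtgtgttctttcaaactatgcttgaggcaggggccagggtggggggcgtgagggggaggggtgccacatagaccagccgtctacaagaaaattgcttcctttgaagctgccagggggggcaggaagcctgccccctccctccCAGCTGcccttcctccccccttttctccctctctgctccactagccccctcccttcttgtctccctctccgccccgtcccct

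The window of Ogn held 3 E-boxes, 162, 63 and 39 bases before the start, that of Aspn and that of Bgn 1 each, and that of Prelp none. Base composition differed widely: G and C made up 29.6% of the Aspn window, 41.7% of that of Ogn, 55.7% of that of Prelp and 62.2% of that of Bgn, against a median of 51.7% over all windows. These letter matches describe the sequence only.

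These transcripts were at their highest in MSC, where Dcn was the most abundant of them. The 9 genes together made up 2.41 ± 0.124% of all counts in injured MSC and 3.53 ± 0.0678% in uninjured MSC (SD, n = 3 each). In MuSC their share was 0.177 ± 0.0322% after injury and 0.197 ± 0.0467% without it, and in CD31+ cells it was 0.0128 ± 0.00151% in injured and 0.0356 ± 0.0024% in uninjured libraries. Dcn alone accounted for 0.891% to 1.17% of counts in injured MSC libraries and for 2.44% to 2.56% in uninjured ones.

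**Figure D1:**
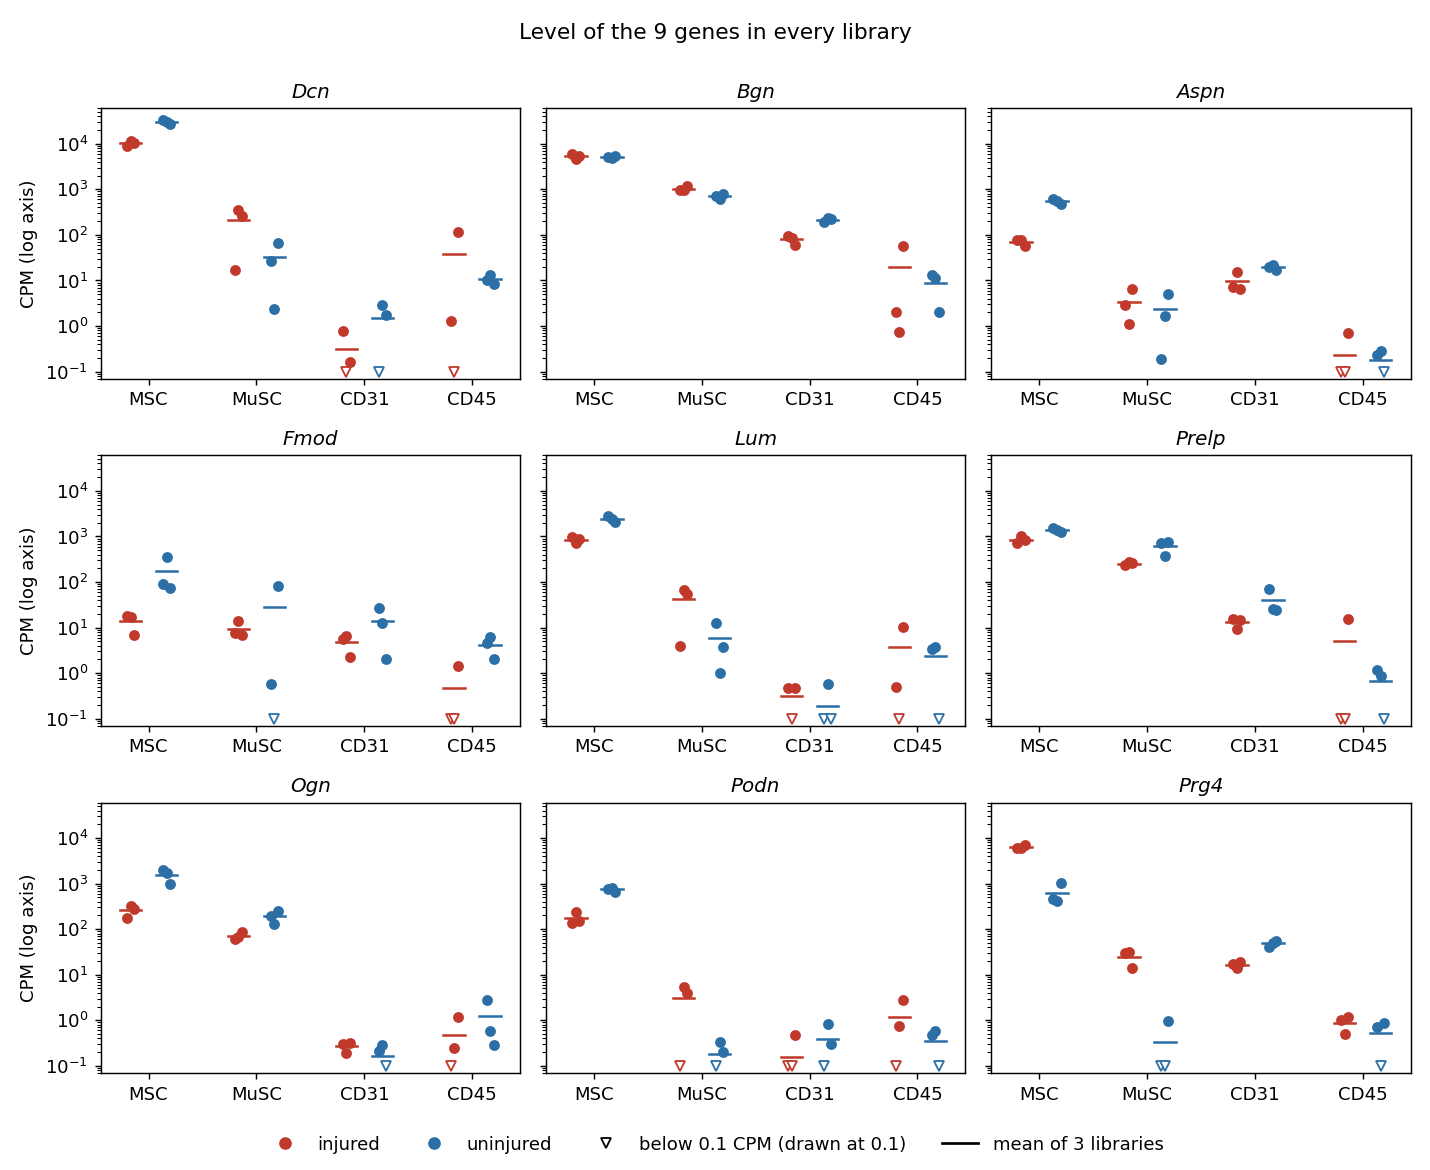
Level of each of the 9 genes in CPM (log axis) in every library of the 4 populations, injured in red to the left of uninjured in blue; horizontal lines are means of 3 libraries and open triangles are libraries below 0.1 CPM. Dcn, Lum, Podn and Aspn stand highest in uninjured MSC, Prg4 in injured MSC (5925 to 6974 CPM), and the injured MuSC and CD45+ columns of Dcn and Lum show libraries far apart.

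Among injured populations, 8 of the 9 genes passed the test for a higher level in MSC than in each other population, against 5.75% of all genes tested. Fmod was the exception, with 13.9 ± 6.16 CPM in injured MSC and 9.48 ± 3.78 CPM in injured MuSC (log2 difference 0.58 ± 1.16 SE, adjusted p = 0.765). Among uninjured populations 7 of 9 passed, against 9.09% of all genes. Those that did not were Prelp, which exceeded MuSC by 1.17 ± 0.579 on the log2 scale (adjusted p = 0.123), and Fmod, which exceeded MuSC by 2.60 ± 1.10 (adjusted p = 0.0713). Dcn shows the distance to other cells: uninjured MSC held 30140 ± 2520 CPM of Dcn, against 32.3 ± 32.9 CPM in uninjured MuSC, 10.6 ± 2.36 CPM in uninjured CD45+ cells and 1.53 ± 1.43 CPM in uninjured CD31+ cells.

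The 9 genes did not share an order of groups. For Dcn, Lum and Podn, injured MuSC came next after the MSC groups. For Ogn and Prelp, uninjured MuSC came next; its libraries overlapped with injured MSC and, in neither gene, with injured MuSC. For Aspn and Prg4, uninjured CD31+ cells came next, at 19.6 ± 2.18 CPM of Aspn and 48.5 ± 6.87 CPM of Prg4. Bgn held a ladder of 6 steps, with injured and uninjured MSC overlapping at the top and then injured MuSC, uninjured MuSC, uninjured CD31+ and injured CD31+ cells without overlap between any neighbors. The groups of Fmod overlapped with their neighbors all the way from uninjured MSC to injured MuSC.

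Per kilobase of exon (the union of GENCODE vM21 exons), the make-up of the 9 transcripts differed between injured and uninjured MSC. That union covers all annotated transcripts of a gene, 6099 bases over 8 transcripts for Bgn and 5838 over 5 for Dcn. For Lum it is 2448 bases from 1 transcript. A shorter length for a gene would raise its level per kb, so shares and ranks between genes depend on this choice. Dcn held 33.3% to 40.9% of the summed CPM per kb in injured MSC and 59.5% to 60.6% in uninjured MSC. Prg4 held 30.1 ± 2.2% in injured MSC and 1.74 ± 1.07% in uninjured MSC, so that it ranked second of 9 after injury and eighth without it. Bgn held 17.9 ± 3.11% in injured MSC and 9.86 ± 1.44% in uninjured MSC. In MuSC the leading genes were others: Bgn held 51.8 ± 8.4% in injured and 31.9 ± 6.52% in uninjured MuSC, and Prelp held 21.6 ± 2.84% in injured and 44.7 ± 5.09% in uninjured MuSC (SD, n = 3 each).

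**Figure D2:**
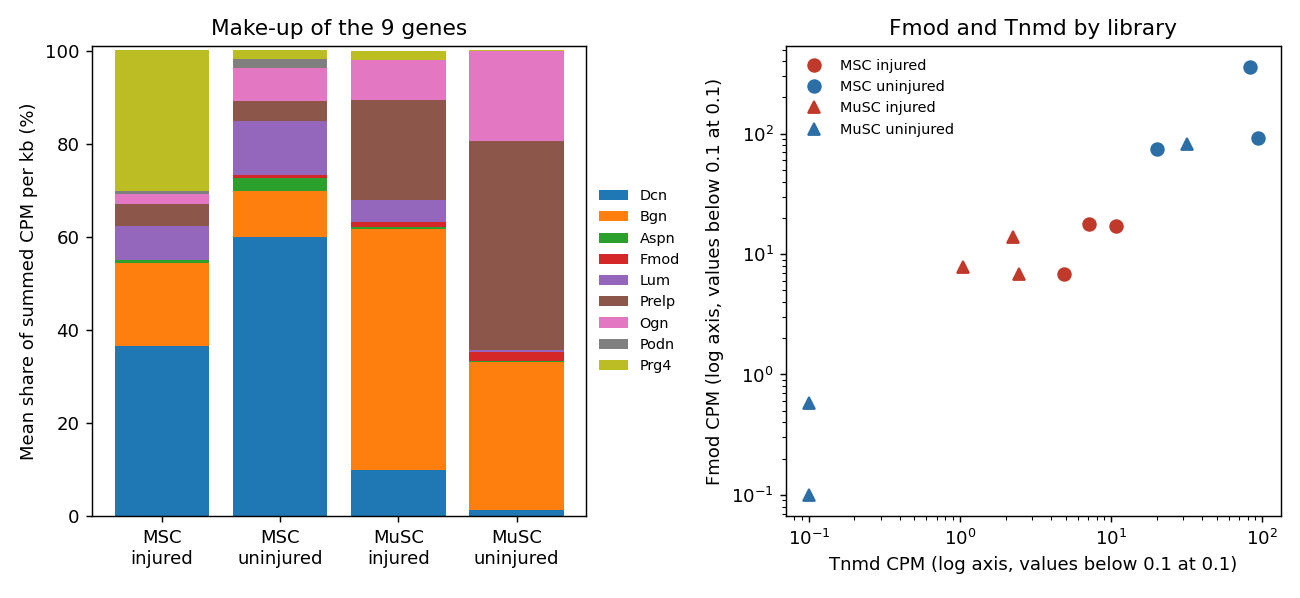
Left, mean share of each gene in the summed CPM per kb of the 9 genes in injured and uninjured MSC and MuSC; Prg4 fills 30.1% of the injured MSC bar and 1.74% of the uninjured one. Right, Fmod against Tnmd in CPM (log axes, values below 0.1 at 0.1) for the 12 MSC and MuSC libraries; uninjured MuSC replicate 3, at 82.7 CPM of Fmod, lies among the uninjured MSC libraries.

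A day after cardiotoxin, the stromal cells held far more lubricin transcript and less of most of the small leucine-rich proteoglycans. Prg4 rose and Aspn, Ogn, Podn and Fmod fell in MSC, while Bgn kept its place within the spread of the libraries. In the fit over all 24 libraries 1 of 9 genes passed upward, against 18.3% of all genes, and 4 of 9 passed downward, against 23.6% of all genes. The median log2 change of the 9 genes was -1.54, and that of all genes tested was -0.225. For 8 of the 9 genes, all but Bgn, the injured libraries lay wholly apart from the uninjured ones, as they did for 55% of all genes.

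Prg4, which makes the lubricant of cartilage and tendon surfaces, had 5957, 5925 and 6974 CPM in injured MSC, against 457, 408 and 1003 CPM in uninjured MSC. The groups were well apart, and uninjured replicate 3 was the highest of the uninjured libraries. The fold change was 10.1 (log2 3.34 ± 0.364 SE, adjusted p = 7.9e-07).

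In the decorin class, Dcn had 9038, 11800 and 10350 CPM in injured MSC, against 32840, 29750 and 27840 CPM in uninjured MSC. All injured libraries lay far below all uninjured ones. The 24-library fit gave a log2 change of -1.54 ± 1.15 with an adjusted p = 0.311; its estimate of spread also covers the uneven low levels of Dcn in MuSC and CD45+ cells. A fit to the 6 MSC libraries gave -1.41 ± 0.125 with an adjusted p = 4.14e-06. With the 4 uneven libraries left out, the log2 change of Dcn in MSC was -1.365. Bgn, whose protein is the closest relative of decorin, had 6016, 4532 and 5354 CPM in injured MSC, against 5080, 4796 and 5523 CPM in uninjured MSC. These groups overlapped, with a log2 change of 0.05 ± 0.692 in the 24-library fit (adjusted p = 0.989) and 0.17 ± 0.126 in the 6-library fit (adjusted p = 0.259), and its sign turned with another scaling (-0.04 with RLE size factors). Aspn, which carries an aspartate-rich stretch in place of sugar chains, had 77.3, 75.8 and 55.7 CPM in injured MSC, against 617, 558 and 477 CPM in uninjured MSC. Aspn fell 7.9-fold, without overlap (log2 -2.98 ± 0.394, adjusted p = 5.53e-06).

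In the fibromodulin class, Lum, which spaces collagen fibrils in cornea and skin, had 962, 733 and 860 CPM in injured MSC, against 2781, 2439 and 2103 CPM in uninjured MSC. As with Dcn, the groups were apart, and the 24-library fit gave -1.52 ± 0.717 (adjusted p = 0.103) where the 6-library fit gave -1.39 ± 0.132 (adjusted p = 6.5e-06). With the 4 uneven libraries left out, the log2 change of Lum in MSC was -1.35. Prelp, which binds collagen and heparan sulfate, had 705, 1007 and 840 CPM in injured MSC, against 1542, 1389 and 1229 CPM in uninjured MSC. Its change was the smallest of the lower genes, -0.71 ± 0.573 (adjusted p = 0.352) over 24 libraries and -0.58 ± 0.132 (adjusted p = 0.00318) over 6. Fmod, a regulator of tendon collagen, had 17.8, 17.2 and 6.83 CPM in injured MSC, against 92.5, 356 and 74.9 CPM in uninjured MSC. Fmod fell by 3.63 ± 1.16 on the log2 scale (adjusted p = 0.0185), but uninjured replicate 2 held the highest level, and the call was lost without it (-2.42, adjusted p = 0.144) and without any of the injured replicates (adjusted p = 0.0655, 0.0507 and 0.0793 without replicates 1, 2 and 3).

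Ogn, a class III protein that takes part in fibril assembly, had 176, 320 and 276 CPM in injured MSC, against 2011, 1726 and 985 CPM in uninjured MSC. Ogn fell 6.13-fold (log2 -2.62 ± 0.321, adjusted p = 2.4e-06). Podn, a more distant relative that binds collagen I, had 138, 238 and 147 CPM in injured MSC, against 769, 815 and 647 CPM in uninjured MSC. Podn fell 4.26-fold (log2 -2.09 ± 0.417, adjusted p = 0.000546), and DESeq2 did not call it (adjusted p = 0.141).

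Other transcripts moved with these. Of 18 stromal markers tested, 14 fell and none rose in MSC. The summed level of the 19 listed ran from 33370 to 50290 CPM in injured libraries and from 145400 to 196600 CPM in uninjured ones. Most of that sum was Gsn, which averaged 24130 ± 7620 CPM in injured MSC and 108800 ± 12300 CPM in uninjured MSC. Tcf21 was at 0 throughout. Muscle fiber transcripts, of which 10 of 10 tested fell, summed to 3.64 to 15.6 CPM in injured MSC and to 172 to 467 CPM in uninjured MSC. TMM factors were 0.987 to 1.02 in injured MSC and 0.782 to 0.880 in uninjured MSC, and by plain library totals Dcn in uninjured MSC came to 24840 CPM in place of 30140. The part of these in the changes of the 9 genes was not tested.

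**Figure D3:**
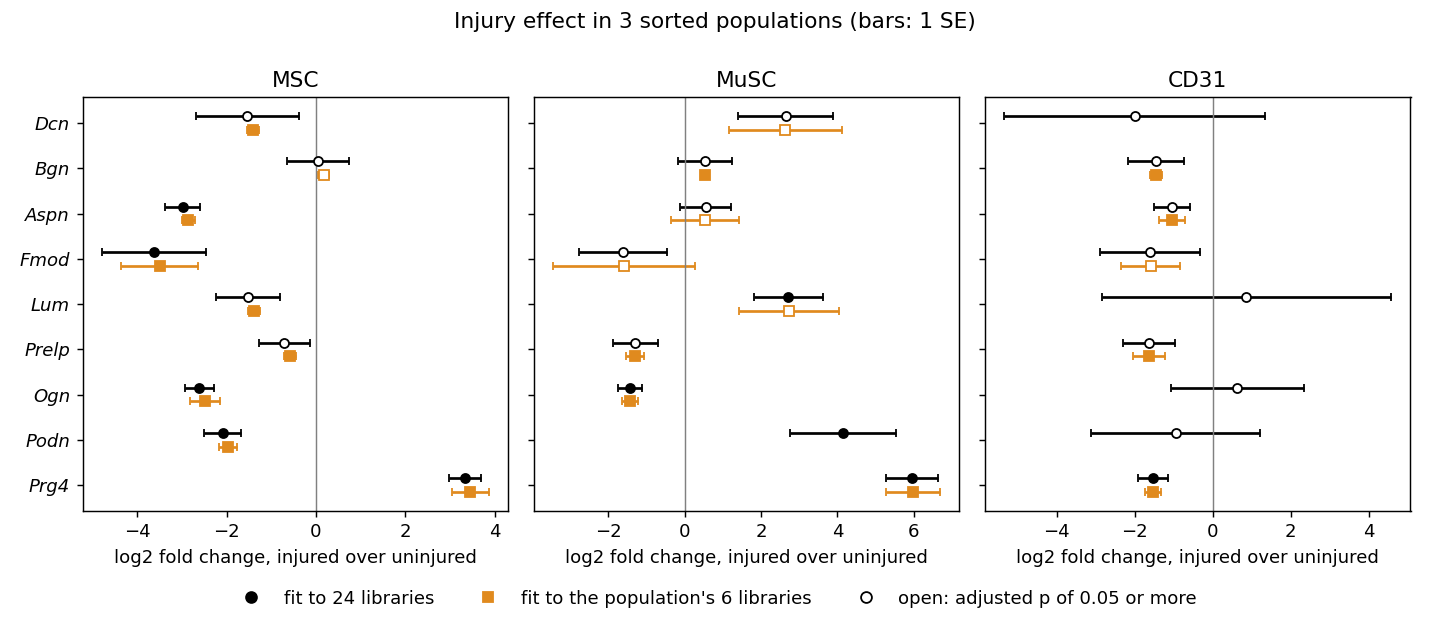
Log2 fold change of the 9 genes, injured over uninjured, in MSC, MuSC and CD31+ cells, with bars of 1 SE; black circles are the fit to all 24 libraries, orange squares the fit to the population's own 6 libraries, and filled symbols have an adjusted p below 0.05. In MSC, Dcn, Lum and Prelp keep nearly the same change in both fits (-1.54 and -1.41 for Dcn), and their SE is smaller in the 6-library fit.

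In muscle stem cells the pattern was another. Prg4 rose, Ogn fell, and Bgn and Prelp were carried at 232 CPM or more in every library. Dcn, Lum and Podn were higher on average after injury, but 2 of the 3 injured libraries supplied almost all of that. In the 24-library fit 3 of 9 genes passed upward (Prg4, Lum and Podn), against 21.4% of all genes, and 1 of 9 passed downward (Ogn), against 17.5%. The median log2 change was 0.56 for the 9 genes and -0.04 for all genes. Groups did not overlap for 4 of the 9 (Bgn, Prelp, Ogn and Prg4), against 49.5% of all genes.

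Prg4 had 30.1, 31.3 and 13.8 CPM in injured MuSC, against 0, 0 and 0.982 CPM in uninjured MuSC. These levels rest on 503 counts in the injured libraries and 5 in the uninjured ones, a ratio of 64.3 with a 95% interval of 27.4 to 199 (exact binomial, counting error only, with PCR copies counted as reads). The test gave a log2 change of 5.96 ± 0.679 (adjusted p = 1.48e-06), which also passed with the 6 MuSC libraries alone (adjusted p = 6.92e-05). With the 4 uneven libraries left out the log2 change was 10.1, from 1 injured library and 2 uninjured ones with 0 counts each.

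Bgn had 953, 947 and 1170 CPM in injured MuSC, against 703, 627 and 788 CPM in uninjured MuSC. Every injured library was above every uninjured one; the change of 0.54 ± 0.696 did not pass over 24 libraries (adjusted p = 0.585) and that of 0.53 ± 0.11 passed over 6 (adjusted p = 0.00143). Prelp had 232, 269 and 257 CPM in injured MuSC, against 728, 381 and 739 CPM in uninjured MuSC. It was lower by 1.29 log2 units in both fits, with an adjusted p = 0.0935 over 24 libraries and 0.00317 over 6. Ogn had 60.7, 66.2 and 84.6 CPM in injured MuSC, against 190, 132 and 247 CPM in uninjured MuSC. Ogn fell 2.69-fold (log2 -1.43 ± 0.315, adjusted p = 0.00131), so that it fell in both MSC and MuSC, and its response did not pass the test of a difference between populations (adjusted p = 0.101).

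Injured MuSC libraries differed in stromal transcripts, and Dcn, Lum and Podn differed with them. Dcn had 16.7, 354 and 256 CPM in injured MuSC, against 26.9, 2.37 and 67.6 CPM in uninjured MuSC. Injured replicates 2 and 3 were high and replicate 1 lay among the uninjured libraries (log2 2.65 ± 1.24, adjusted p = 0.104). Lum had 4.02, 66.5 and 55.4 CPM in injured MuSC, against 12.8, 1.02 and 3.73 CPM in uninjured MuSC. The same 2 replicates were high (log2 2.72 ± 0.899, adjusted p = 0.0238). The fit to the MuSC libraries alone did not call Lum (log2 2.74 ± 1.31, adjusted p = 0.151). Podn had 0, 5.30 and 4.02 CPM in injured MuSC, against 0, 0.339 and 0.196 CPM in uninjured MuSC. These came from 64 counts in injured and 2 counts in uninjured libraries, a ratio of 20.5 with an exact 95% counting interval of 5.44 to 173 (log2 4.14 in the fit, adjusted p = 0.0243). Between the highest and the lowest injured library, Dcn differed 21.2-fold and Lum 16.6-fold. The median over 6567 genes of at least 20 CPM was 1.22-fold, and 14 of those genes differed over 10-fold. Uninjured MuSC libraries were uneven as well, at lower levels. Among them Dcn differed 28.5-fold and Lum 12.6-fold, with 7 counts of Dcn and 3 of Lum in the lowest library.

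Set against the mean of injured MSC, injured MuSC replicates 1, 2 and 3 held 0.160%, 3.41% and 2.46% of the Dcn level. For Lum the shares were 0.472%, 7.81% and 6.51%, and for Podn 0%, 3.04% and 2.31%. Several stromal markers followed the same order: Pdgfra, the gate gene of MSC, stood at 0.0456%, 7.47% and 3.90%, and Smoc2 at 0.0868%, 6.54% and 3.62%. Mfap5, a microfibril protein, stood at 0.133%, 2.57% and 1.84%. The median over 18 stromal markers was 0.474%, 4.51% and 2.40% in replicates 1, 2 and 3.

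Other members and markers did not follow it. Bgn stood at 18.0%, 17.9% and 22.1% of its level in injured MSC, Ogn at 23.6%, 25.7% and 32.9%, and Prelp at 27.2%, 31.6% and 30.3%, all nearly even across the replicates. Prg4 stood at 0.478%, 0.498% and 0.219%, so that the library with the least Dcn held nearly as much Prg4 as replicate 2. Aspn stood at 4.06%, 1.62% and 9.14%, lowest in replicate 2. It had 2.83, 1.12 and 6.36 CPM in injured MuSC, against 0.194, 1.70 and 5.11 CPM in uninjured MuSC (log2 0.56 ± 0.67, adjusted p = 0.55). Among the markers, Col3a1 (9.48%, 8.19% and 9.81%), Gsn (6.18%, 6.45% and 7.64%) and Islr (90.7%, 58.2% and 67.0%) were even. Dpp4 was at 0 in all 3 libraries, and Cd248 was at 0.229%, 0% and 0.02%. The summed level of the 19 stromal markers was 2320 to 2835 CPM in injured MuSC and 5006 to 5644 CPM in uninjured MuSC. Most of that sum was Gsn, at 1491 to 1842 CPM in injured MuSC and 2928 to 3675 CPM in uninjured MuSC. Of the 18 markers tested in MuSC, 4 rose and 5 fell. For Prg4, the shares of 0.478%, 0.498% and 0.219% stood beside median stromal shares of 0.474%, 4.51% and 2.40%. The part of stromal transcripts in the higher Dcn, Lum, Podn and Prg4 was not tested.

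**Figure D4:**
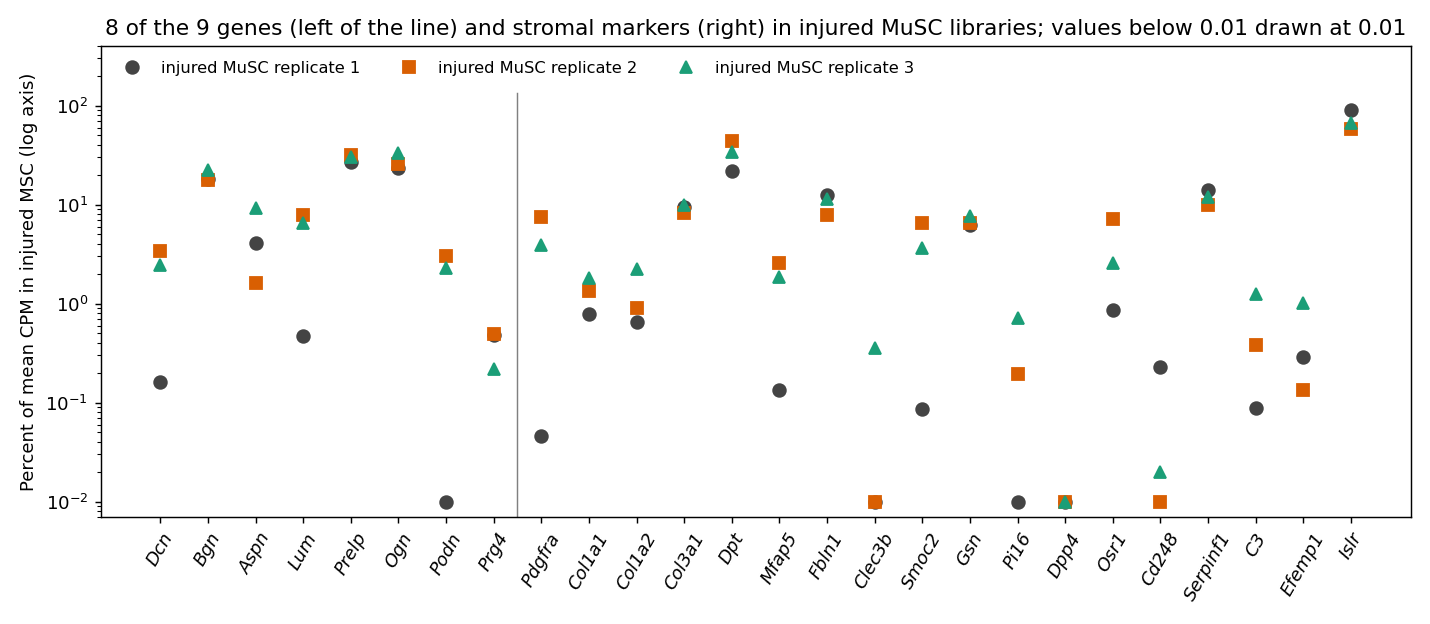
Level in each injured MuSC library as a percent of the mean level in injured MSC (log axis), for 8 of the 9 genes and for 18 stromal markers; Fmod is left out because injured MSC held under 20 CPM of it. Replicate 1 (gray circles) lies far below replicates 2 and 3 for Dcn (0.160% against 3.41% and 2.46%), Lum, Podn, Pdgfra, Mfap5 and Smoc2, and beside them for Bgn, Prelp, Ogn and Prg4.

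With the 4 uneven libraries left out, a choice made after the data were seen that leaves 1 injured and 2 uninjured MuSC libraries, Dcn, Lum and Podn changed sign in MuSC. The log2 changes were then -0.08 for Dcn, -1.11 for Lum and -2.62 for Podn (adjusted p = 1, 0.475 and 0.642), the lone injured library being assumed to vary like the other groups. Without replicate 2 alone, Lum was at 2.25 (adjusted p = 0.0897) and Podn at 3.61 (adjusted p = 0.0851), and without replicate 3 alone at 2.47 (adjusted p = 0.0685) and 3.89 (adjusted p = 0.0697). The Lum call was also lost without uninjured replicate 2 or 3 (adjusted p = 0.0823 and 0.0937), and the Podn call without uninjured replicate 1 or 3 (adjusted p = 0.102 and 0.0769). Of all alternatives run for the change in MuSC, Lum passed under 4 of 13 and Podn under 5 of 12.

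The Fmod level of uninjured MuSC came almost wholly from 1 library. Fmod had 7.74, 13.8 and 6.88 CPM in injured MuSC, against 0.581, 0 and 82.7 CPM in uninjured MuSC (log2 -1.60 ± 1.15, adjusted p = 0.299). Uninjured replicate 3, the high library, also held 31.8 CPM of Tnmd (tenomodulin, a membrane protein of tendon cells), 45.0 CPM of Chad (chondroadherin) and 142 CPM of Thbs4, where replicates 1 and 2 had 0 CPM of Tnmd and at most 0.775 CPM of Chad. Its 6 tendon markers, which do not include Chad, summed to 188 CPM, against 4.07 and 3.39 CPM in the other uninjured libraries. The injured MuSC libraries reached 97.9, 135 and 189 CPM, of which Thbs4 made up 90.0, 127 and 166 CPM, with Tnmd at 1.04, 2.25 and 2.47 CPM. Mkx, also listed, was nearly even in uninjured MuSC, at 2.13, 2.03 and 3.14 CPM. Scx had 0.775, 0.339 and 3.14 CPM in uninjured MuSC, and more in injured MuSC, with 4.31, 3.53 and 10.4 CPM. Without uninjured replicate 3 Fmod was higher in injured MuSC (log2 4.61, adjusted p = 0.0352), and the part of tendon cells in its level was not tested.

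In MSC, uninjured replicate 2, where Fmod stood at 356 CPM, was also high in Chad, at 110 CPM, against 0 and 1.78 CPM in uninjured replicates 1 and 3. Tnmd did not single it out: replicate 2 had 83.3 CPM, against 93.7 CPM in replicate 1 and 20.2 CPM in replicate 3. In injured MSC, Tnmd was at 7.13, 10.8 and 4.85 CPM and Fmod, as above, at 17.8, 17.2 and 6.83 CPM. Thbs4, listed with the tendon markers, went the other way in level, with 1748, 1023 and 1547 CPM in injured MSC and 253, 645 and 342 CPM in uninjured MSC. Of the 5 tendon markers tested in MSC, 2 fell and none rose. Scx and Mkx were low in every MSC library, at most 0.224 and 0.672 CPM, both in uninjured replicate 2.

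In CD31+ cells, lubricin fell after injury, opposite to its change in MSC and MuSC. Prg4 had 16.9, 13.8 and 19.2 CPM in injured CD31+ cells, against 41.0, 50.0 and 54.5 CPM in uninjured ones. The groups were apart (log2 -1.54 ± 0.375, adjusted p = 0.00563), although limma voom put it just over the threshold (adjusted p = 0.056). Prg4 was the only gene of the 9 to pass downward, against 9.3% of all genes, and none of 9 passed upward, against 14.1% of all genes (0 also at an unadjusted p below 0.05, and 0 by DESeq2). RLE size factors, which put the median log2 change of all genes in CD31+ cells at -0.145 in place of -0.0357 with TMM, split the calls over all genes into 1926 higher and 2058 lower, where TMM gave 2298 higher and 1512 lower.

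Bgn had 93.8, 85.4 and 60.2 CPM in injured CD31+ cells, against 193, 234 and 225 CPM in uninjured ones, and all injured libraries were lower. Its change was -1.45 in both fits, with an adjusted p = 0.169 over 24 libraries and 8.5e-06 over the 6 of CD31+ cells. Prelp had 15.1, 9.12 and 14.6 CPM in injured CD31+ cells, against 70.8, 25.1 and 24.2 CPM in uninjured ones (adjusted p = 0.0875 over 24 libraries and 0.0129 over 6). Aspn had 7.08, 15.3 and 6.51 CPM in injured CD31+ cells, against 19.6, 21.8 and 17.4 CPM in uninjured ones (adjusted p = 0.11 over 24 libraries and 0.027 over 6). These 3 and Prg4 were the 4 genes whose groups did not overlap, against 37.3% of all genes. Dcn, Lum, Ogn and Podn stayed at or under 2.83 CPM in every CD31+ library, and Fmod had 2.22 to 6.40 CPM in injured libraries and 2.06 to 27.2 CPM in uninjured ones.

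Some transcripts of mural cells, the contractile cells around vessels, were also lower. The 10 mural markers summed to 343 to 520 CPM in injured CD31+ libraries and to 601 to 833 CPM in uninjured ones, with none at 0, and 2 of the 9 tested fell while none rose. Rgs5, a pericyte marker, had 71.4, 58.4 and 88.1 CPM in injured CD31+ libraries, against 235, 226 and 111 CPM in uninjured ones. Abcc9, also listed, was higher in each injured library and did not pass, with 7.23, 5.63 and 15.6 CPM in injured libraries and 1.91, 3.39 and 3.24 CPM in uninjured ones. Pdgfrb overlapped between the groups, with 31.2, 22.5 and 32.9 CPM in injured libraries and 31.9, 34.7 and 21.2 CPM in uninjured ones. The 19 stromal markers summed to 51.9 to 76.9 CPM in injured and to 41.9 to 89.3 CPM in uninjured CD31+ libraries. Of the 10 leukocyte markers tested, 6 rose (median log2 change 4.03), and without injured replicate 1, the library highest in them, Prg4 still fell (log2 -1.54, adjusted p = 0.0229). The part of mural cells or leukocytes in the levels of Bgn, Prelp, Aspn and Prg4 was not tested.

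In CD45+ cells the 9 genes were low, with no level above 13.1 CPM outside injured replicate 3. None of 9 passed in either direction in the edgeR fit, against 16% of all genes upward and 18.5% downward, and no unadjusted p was below 0.05. Dcn had 1.26, 0 and 114 CPM in injured CD45+ cells, against 10.4, 13.0 and 8.30 CPM in uninjured ones. Bgn had 2.02, 0.735 and 57.9 CPM in injured CD45+ cells, against 13.1, 11.3 and 2.00 CPM in uninjured ones. Replicate 3 was high in both and the other injured libraries were low. That library held 1.10% of the injured MSC level of Dcn, 1.23% of Lum, 1.09% of Bgn, 1.79% of Prelp, 1.61% of Podn and 1.01% of Aspn, and a median of 1.02% over 18 stromal markers. Lower shares were found for Ogn, at 0.454% with 5 counts, and for Prg4, at 0.0186% with 5 counts (1.17 CPM). Prg4 had 1.01 and 0.49 CPM in injured replicates 1 and 2.

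Without replicate 3 of injured CD45+ cells alone, Bgn was lower by 2.63 log2 units (adjusted p = 0.00318). With the 4 uneven libraries left out, Bgn (-2.62, adjusted p = 0.0104) and Dcn (-3.98, adjusted p = 0.0302) were lower, and DESeq2 on all libraries called Prelp higher (log2 2.83, adjusted p = 0.0402). Stromal transcripts in the library were 6.31 CPM of Pdgfra, against 0 CPM in each of the other injured CD45+ libraries. Their part in these values was not tested.

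The size of the injury effect differed between the 4 populations for Prg4, Aspn, Podn and Lum. The joint test of the 4 injury effects gave an adjusted p = 1.61e-06 for Prg4, 0.00429 for Aspn, 0.00512 for Podn and 0.0476 for Lum. That is 4 of 9 genes, against 35.9% of all genes. Prg4 and Aspn passed under all 30 alternatives and Podn under 28, while Lum passed under 4. With the 4 uneven libraries left out the adjusted p was 0.726 for Podn and 0.742 for Lum, and Bgn passed (adjusted p = 0.00933), so that 3 of 9 genes were called.

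The levels of the 9 genes were correlated across the 24 libraries to different degrees. Pearson's r of log2 CPM, with an added prior of 2 counts, was 0.98 for Dcn with Lum and 0.98 for Bgn with Prelp. It was 0.94 for Lum with Podn, 0.92 for Dcn with Podn, 0.87 for Ogn with Prelp and 0.85 for Aspn with Prg4, and its lowest value was 0.49, for Ogn with Prg4. These values describe 24 libraries that share 4 populations, and the contrast between populations dominates them. In injured MSC libraries the CPM of Dcn was 9.40, 16.1 and 12.0 times that of Lum, and in uninjured ones 11.8, 12.2 and 13.2 times. In injured MuSC it was 4.15, 5.32 and 4.62 times, in 3 libraries whose Dcn level differed 21.2-fold.

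The genes most like each member, among 9991 with a mean of at least 20 CPM in some group, were ranked by the same r over 24 libraries. For Dcn they were Mfap5 (0.968), Smoc2 (0.957) and Col1a1 (0.944), and for Lum the same 3 (0.966, 0.964 and 0.961). For Bgn they were Ddr2, a collagen receptor (0.976), Gpx8 (0.972) and Serping1 (0.971), and for Prelp they were Lhfp (0.987), Fat1 (0.987) and Serping1 (0.984). Ogn came with Entpd2 (0.988), Dpt (0.985) and Olfml1 (0.983), and Podn with Dpep1 (0.982), Fst (0.975) and Gdf10 (0.971). Aspn came with Pcsk6 (0.973), Aoc3 (0.953) and Rab2a (0.948). Prg4 came with Uap1, which makes the UDP-GlcNAc used in sugar chains (0.958), Cthrc1 (0.947) and Zfp385b (0.934). Fmod had the weakest matches, with Tnmd (0.856), Mgp (0.837) and Cpxm2 (0.834).

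Related leucine-rich genes in the same chromosomal runs also fell in MSC. Ecm2, beside Aspn, had 58.8 ± 17.4 CPM in injured MSC and 422 ± 34.8 CPM in uninjured MSC and fell (log2 -2.85 ± 0.302, adjusted p = 1.69e-07). Omd (osteomodulin), between Aspn and Ogn, had 5.29 ± 1.68 CPM in injured MSC and 63.1 ± 18.3 CPM in uninjured MSC and fell (log2 -3.57 ± 0.514, adjusted p = 2.04e-05). All 4 genes of that run thus fell. Kera (keratocan), beside Lum, had 0.987 ± 0.725 CPM in injured MSC and 10.99 ± 7.53 CPM in uninjured MSC and fell (adjusted p = 0.0183). Tsku (tsukushi) rose, with 77.0 ± 5.39 CPM in injured MSC and 33.9 ± 3.85 CPM in uninjured MSC (adjusted p = 0.00369). Outside MSC, Ecm2 also fell in MuSC (7.54 CPM injured and 27.1 CPM uninjured, adjusted p = 0.000192). Tsku also rose there (14.4 CPM injured and 4.35 CPM uninjured, adjusted p = 0.000741). In CD31+ cells Ecm2 fell (22.5 CPM injured and 102.9 CPM uninjured, adjusted p = 1.65e-05) and Tsku rose (adjusted p = 0.0118). In CD45+ cells Tsku fell (log2 -2.39, adjusted p = 0.00292) and Ecm2 did not pass (adjusted p = 0.446). Podnl1 did not pass in MSC (adjusted p = 0.231), and Optc, Epyc and Nyx had too few counts to be tested. Chad was not tested either. Its 787 counts lay mostly in uninjured MSC replicate 2 (491 counts) and uninjured MuSC replicate 3 (229 counts).

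Enzymes that build the sugar chains were set beside all genes in MSC, of which 18.3% passed upward and 23.6% downward. Of 21 tested for the linker and for chondroitin and dermatan sulfate, 4 rose and 5 fell, near those shares, with a median log2 change of -0.16. Csgalnact1, which starts the chondroitin chain, rose to 256 ± 10.6 CPM in injured MSC, against 30.7 ± 8.22 CPM in uninjured MSC (log2 3.06 ± 0.317, adjusted p = 9.81e-08). Csgalnact2, its paralog, fell, with 8.18 ± 1.03 CPM in injured MSC and 19.4 ± 5.02 CPM in uninjured MSC (adjusted p = 0.000794). B3galt6, a linker enzyme, rose (adjusted p = 0.000353), and the sulfotransferase Chst12 fell (adjusted p = 4.36e-06). Of 5 keratan sulfate enzymes tested, 1 rose (St3gal1) and 3 fell (St3gal2, Chst1 and B4galt4), with a median of -0.49. Of 6 genes that supply the sulfate donor, 1 rose (Slc35b2) and 2 fell (the sulfate transporter Slc26a2 and Papss1), with a median of -0.27.

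Collagens, which these proteins bind, mostly fell in MSC, as did several proteases and receptors, against 23.6% of all genes downward and 18.3% upward. Of 11 collagen genes tested (fibril-forming, beaded or of the fibril surface), 9 fell and 1 rose, with a median log2 change of -2.02. The gene that rose was Col12a1, of the fibril surface (log2 0.81 ± 0.324, adjusted p = 0.0475). Col14a1, which like decorin sits on the fibril surface, had 181 ± 52.4 CPM in injured MSC and 1099 ± 164 CPM in uninjured MSC (log2 -2.60 ± 0.3, adjusted p = 8.43e-07). Col5a1, Col6a1 and Col3a1 fell too (adjusted p = 7.69e-05, 0.00216 and 0.0111). Of 12 proteases that cut proteoglycans, 6 fell, among them Adamts5, Bmp1, Mmp2 and Ctsk, and 1 rose (median log2 change -0.83). Of 11 receptors that bind these proteins, 5 fell, among them P2rx7, Tlr2 and Lrp1, and 1 rose, Cd44, with 496 ± 95.7 CPM in injured MSC and 93.5 ± 11.9 CPM in uninjured MSC (log2 2.41 ± 0.214, adjusted p = 1.01e-08). The median over the receptors was -1.42, and CD44 is a hyaluronan receptor that also binds lubricin. In injured MuSC Cd44 averaged 583 CPM and in uninjured MuSC 57.3 CPM (adjusted p = 1.46e-10). Cd44 also rose in CD31+ cells (adjusted p = 0.00547) and in CD45+ cells (adjusted p = 1.84e-05).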

How the data were processed

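RNA-seq counts of 24 libraries were analysed, 3 per group. The authors deposited whole-number read counts per gene symbol, without normalization; no column was left unused. The genome build mm10 and the tools STAR 2.5.4 and featureCounts are named per the submitters' processing notes; the version and settings of featureCounts and the annotation were not given in the sources used here. Per the labels' protocols, cDNA was primed with oligo(dT), amplified and then fragmented with the Nextera XT kit, with no strand mark and no molecular identifier named, so PCR copies count as reads, overlapping genes on opposite strands cannot be told apart, and intervals cover counting error only.

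Counts were analysed in R 4.3.3 with edgeR 4.0.16: filterByExpr over the 8 groups, TMM scaling, 1 model with a mean per group (16 residual degrees of freedom) and the quasi-likelihood F test with robust estimation. P-values were adjusted by Benjamini-Hochberg over the 16263 genes of a comparison, with a threshold of 0.05; SE is the log2 change divided by the square root of F. Contrasts were injured minus uninjured, MSC minus each other population, and the joint difference of injury effects (3 degrees of freedom). The test was checked on simulated counts for injury in MSC only, with the same spread for all genes and groups. That check does not cover genes whose spread differs between groups, such as Dcn. Alternatives were RLE scaling, DESeq2 1.42.0, limma 3.58.1 voom, no filter, a replicate block, fits to 1 population's 6 libraries, plain library totals, each library left out, and, added after seeing the data, the 4 uneven libraries left out. CPM are on TMM-scaled totals, given as mean ± SD over 3 libraries. Figures used matplotlib 3.10.9.

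The members, gene lists and tests were chosen with earlier results of these data known. Named were the 9 members, all related leucine-rich genes, of other lists up to 4 genes by smallest adjusted p in MSC, gate genes, marker genes that give a list's level, and the 3 genes of highest r per member, leaving out unnamed gene models. Ecm2, Tsku, Cd44 outside MSC, and Abcc9 and Pdgfrb in CD31+ cells were chosen after their values were seen. So were the examples of even or uneven stromal markers.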

Additional observations from a re-analysis of the deposited data

Results flagged for a closer look

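The injury effect differed between the 4 populations for 4 of the 9 genes, against 35.9% of all genes tested. The joint F test gave an adjusted p = 1.61e-06 for Prg4, which rose in MSC (6285 ± 597 CPM injured, 622.6 ± 330 CPM uninjured) and in MuSC, fell in CD31+ cells and was under 1.2 CPM in CD45+ cells. It gave an adjusted p = 0.00429 for Aspn, which fell in MSC (log2 -2.98) and was at -1.05 in CD31+ cells and 0.56 in MuSC, neither of which passed.

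Podn (adjusted p = 0.00512) fell in MSC (log2 -2.09) and was at 4.14 in MuSC, and Lum (adjusted p = 0.0476) was at -1.52 in MSC and 2.72 in MuSC. Podn passed this joint test under 28 of 30 alternatives and Lum under 4. In both, the MuSC value came from injured replicates 2 and 3, the libraries with Pdgfra at 48.8 and 25.4 CPM, against 0.298 CPM in replicate 1. With the 4 uneven libraries left out, the adjusted p was 0.726 for Podn and 0.742 for Lum. The part of stromal transcripts was not tested.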

How the results depend on the processing

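Prg4 in MSC and MuSC, and Aspn and Ogn in MSC, kept their direction and passed under every alternative run. For Prg4 in MuSC, the alternative without the 4 uneven libraries rests on 1 injured library. The counts of genes highest in MSC stayed within 1.5 times. Of the lower genes in MSC, 7 of 9 passed with limma voom and with the 6 MSC libraries alone, against 4. Calls over all genes, in both directions, rose there too, to 45.1% and 57.3%, against 41.9%. In MuSC such calls were 41.1% with limma voom, 52.1% with its own libraries and 13.3% with no filter, against 38.8%. In CD31+ cells they were 32.7% with its own libraries, against 23.4%. Lower counts in MuSC were 2 with limma voom and 2 with its own libraries, against 1. Higher counts in MuSC were 1 with no filter and 1 with the 4 uneven libraries left out, against 3, and 1 to 3 with a library left out. Lower counts in CD31+ cells were 4 with its own libraries and 4 without the uneven libraries, against 1, and 1 to 2 with a library left out. In CD45+ cells 1 was higher with DESeq2 and 2 were lower without the uneven libraries, against 0; with a library left out, 0 to 1 were higher and 0 to 1 lower.

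Signs turned for Bgn in MSC (-0.03945 with RLE scaling, -0.03946 with DESeq2), and in MuSC for Fmod (1.79 with limma voom and 4.16 without the uneven libraries), Dcn (-0.08443), Lum (-1.11) and Podn (-2.62), the last 3 without the uneven libraries; the cause was not tested. With a library left out, the log2 change ranged from -2.18 to 4.61 for Fmod and from -0.2549 to 2.21 for Aspn in MuSC, and for calls from -3.85 to -2.42 for Fmod in MSC, from 2.25 to 3.98 for Lum and from 3.52 to 4.73 for Podn in MuSC, and from -1.51 to -0.8158 for Aspn in CD31+ cells. With no filter Fmod in MSC was at an adjusted p = 0.0682. Plain library totals moved 10 levels by more than 1 SD.

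Replicate numbers are not said to pair samples. Within a population, deviations from the group mean were compared between injured and uninjured libraries of the same number. They correlated at -0.0828 to 0.0723 (12 pairs of libraries, none over 0.1), and 4 of 12 correlated best with their own number. Pairing between populations of the same condition was not checked, so these values cannot speak to it. With a replicate block, 1 gene was higher and 4 lower in MSC, 3 higher and 1 lower in MuSC, 0 higher and 1 lower in CD31+ cells, and 0 in CD45+ cells, as without it; 3 genes differed in response, against 4, with Lum at an adjusted p = 0.0841. Depth limits low levels, such as Podn and Prg4 in uninjured MuSC, where libraries held 5 counts or fewer.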
